A study of Rattus norvegicus with 2 samples.

Results

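The oncofetal targets of let-7 examined here are 10 genes taken by name: the mRNA-binding proteins Igf2bp1, Igf2bp2 and Igf2bp3, the chromatin proteins Hmga1 and Hmga2, the RNA-binding proteins Lin28a and Lin28b, the transcription factors Myc and Mycn, and the ubiquitin ligase Trim71. A row of the table matched 8 of the 10 by symbol, out of 16846 genes in all. Igf2bp3 and Lin28b were matched to no row and are not analysed here. Of the 8, 5 had reads in either library, 4 had a mean of at least 1 read per 1000000 reads on genes (RPM), and 3 were listed at 0 reads in both. The row named Imp3, a name also used for Igf2bp3, is another gene and was not counted as a member.

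RNA came from ventricular cells of rats at postnatal day 0, plated as cardiomyocytes after 2 h of pre-plating, with a purity stated as above 90%. One library is from cultures transduced for 7 days with adeno-associated virus of type AAV2/9 that delivers short hairpin RNAs against miR-99/100 and let-7a/c, called here the anti-miR library. The other is from control cultures, described by one label as given an empty virus and by another as mock-transduced. No source used here gives the strain, the number of litters or the promoter of the hairpins. With 1 library per group no difference has a replicate check, so all comparisons describe these 2 libraries and no p-value is given.

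The let-7 miRNAs pair through bases 2 to 8, the seed, with sites in mRNAs and lower the stability and translation of those mRNAs. Many of the genes described here are active in embryonic tissue and in tumours, and several are silenced as mature let-7 accumulates. LIN28 proteins in turn bind let-7 precursors and block their processing, so the family and its targets form a loop of mutual inhibition. HMGA2, IGF2BP1 to IGF2BP3, LIN28B and TRIM71 are among the most often cited let-7 targets of mammals.

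The mature sequences of both families are shown because the hairpins are named for let-7a/c and miR-99/100, while a target site is read by the seed that each family shares. All are mature rat miRNAs from RefSeq (build GRCr8), written 5′ to 3′ with the seed in capitals. All mature miRNAs in that table with the let-7 seed are listed first: 9 names from 12 genes. The pair with the miR-100 seed in that table follows. Any miRNA of either family that is absent from that table is not shown.

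rno-let-7a-5p: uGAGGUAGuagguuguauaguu
rno-let-7b-5p: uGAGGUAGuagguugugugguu
rno-let-7c-5p: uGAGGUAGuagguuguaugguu
rno-let-7d-5p: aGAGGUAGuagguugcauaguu
rno-let-7e-5p: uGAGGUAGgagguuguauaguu
rno-let-7f-5p: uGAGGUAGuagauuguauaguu
rno-let-7g-5p: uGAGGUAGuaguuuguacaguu
rno-let-7i-5p: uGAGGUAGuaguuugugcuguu
rno-miR-98-5p: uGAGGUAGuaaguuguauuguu
rno-miR-100-5p: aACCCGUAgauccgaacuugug
rno-miR-99b-5p: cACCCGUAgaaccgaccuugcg

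Counted from the 5′ end, let-7c differs from let-7a by 1 substitution, A19G. Among the other members let-7e has U9G, let-7f has G12A, and let-7i has the most differences from let-7a, 4. Every difference among the 9 lies outside the seed. miR-99b differs from miR-100 by 4 substitutions, also outside the shared seed. Mature miRNAs are not measured by poly(A) RNA-seq, so whether their levels were lowered was not tested here.

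The oncofetal genes did not move together between the libraries. Igf2bp1 was lower in the anti-miR library, Myc was higher, Igf2bp2 and Hmga1 differed by no more than counting error, and Trim71 had reads in the anti-miR library alone. Hmga2, Lin28a and Mycn were listed at 0 reads in both. Of the 4 that averaged 1 RPM or more, 1 was at least 2-fold lower and 0 were at least 2-fold higher. Over all 10365 genes of that level, 3.56% were at least 2-fold lower and 4.85% at least 2-fold higher. At a ratio of 1.5 the members counted 1 higher and 1 lower, beside 10.8% and 8.56% of all genes. The median log2 ratio of the 4 was −0.12, beside 0.03 over all genes. Only members with reads could enter these counts.

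**Figure D1:**
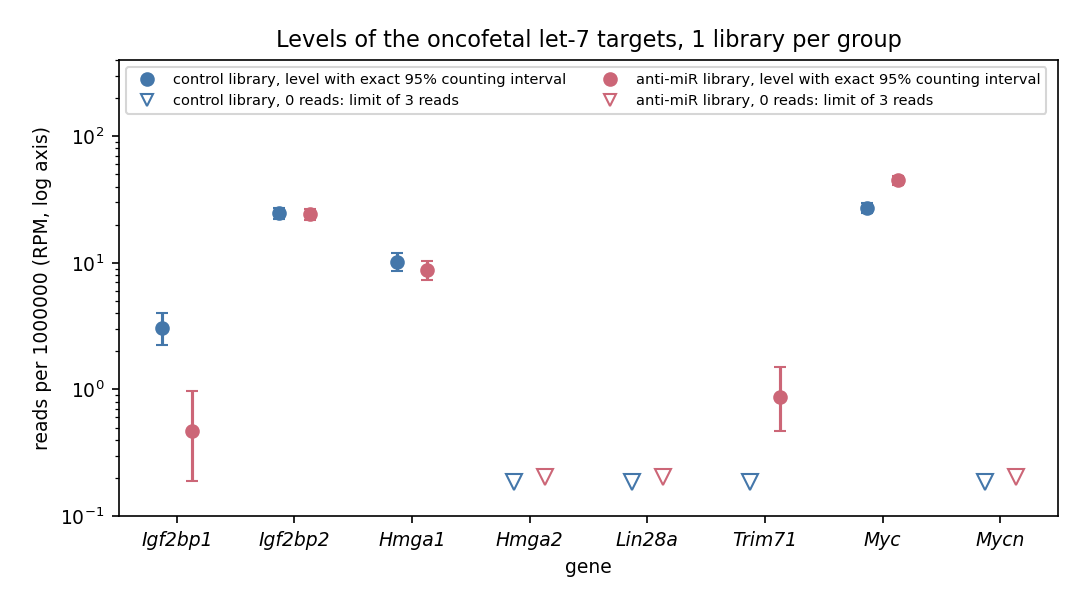
Level of each measured oncofetal gene in the control (blue) and anti-miR (red) library, in RPM on a log axis, with exact 95% counting intervals as bars. Open triangles mark 0 reads, drawn at the limit of 3 reads, 0.187 and 0.202 RPM. The intervals of Igf2bp1 and Myc do not overlap between libraries, and those of Igf2bp2 and Hmga1 do.

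Igf2bp1 (chromosome 10, 84671084 to 84714648 of build rn4, minus strand) encodes an mRNA-binding protein that protects and transports transcripts such as those of beta-actin and Myc. Its reads numbered 49 in the control library against 7 in the anti-miR library, or 3.06 RPM (95% counting interval 2.26 to 4.04) and 0.473 RPM (0.190 to 0.973). The ratio was 0.155 (exact interval 0.0591 to 0.343), a level 6.47-fold lower in the anti-miR library, and the log2 ratio on the scale of RPM plus 0.1 was −2.46. Let-7 is known to repress this gene, and it was lower, not higher, in the library with the inhibitors.

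Ratios of genes as scarce as Igf2bp1 spread widely in both directions. At a mean of 1 to 5 RPM, 18.3% of 1406 genes were at least 2-fold lower and 23.6% at least 2-fold higher. The central 95% of the 500 genes nearest in level, at 1.18 to 2.34 RPM, spanned log2 ratios of −4.24 to 5.23, a range that holds the Igf2bp1 value. Of 395 genes with 40 to 60 reads in the control, 23 (5.82%) had 7 or fewer in the anti-miR library, and the median was 48 reads with quartiles of 29 and 74. The counting interval of Igf2bp1 is therefore narrower than the spread seen among genes of its level.

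Igf2bp2 (chromosome 11, 81115241 to 81216170, plus strand), the family member that also persists in adult tissues, had 394 and 358 reads. These correspond to 24.6 RPM (22.2 to 27.1) in the control and 24.2 RPM (21.7 to 26.8) in the anti-miR library. The ratio of 0.983 had an interval of 0.850 to 1.14, which includes 1 and leaves out a difference of 1.5-fold by counting error. The log2 ratio was −0.02, inside the like-level range of −0.68 to 0.96.

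Igf2bp2 was the main Igf2bp transcript measured. Per 1000 bases of transcript it stood 4.65-fold above Igf2bp1 in the control and 29.6-fold above in the anti-miR library. Igf2bp1 made up 11.1% (exact interval 8.30 to 14.4) of the reads of the pair in the control, 49 of 443, and 1.92% (0.774 to 3.91) in the anti-miR library, 7 of 365. Reads of Igf2bp3 cannot be added to this share. The paralogs are similar in their RNA-binding domains, and no source used here says how reads matching both were handled.

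Genes that work with the Igf2bp proteins lay close to 0 as a list. Hnrnpu, Syncrip, Ybx1 and Dhx9 form with IGF2BP1 the complex that shields the Myc coding region from decay, and Elavl1, Pabpc1, Stau1, Fmr1, Fubp3 and Hnrnpab bind some of the same messages. All 10 passed the floor of 1 RPM: 1 (10%) was higher by 1.5-fold or more and 0 lower, beside 10.8% and 8.56% of all genes. The median log2 ratio was −0.03. Ybx1, a cold-shock domain protein, was the highest, at 16.3 and 25.04 RPM and a log2 ratio of 0.61. The Ybx1 row has 2 placements in the genome, so its level may not describe the gene cleanly. Fubp3 was the lowest at −0.49, and the poly(A)-binding protein gene Pabpc1 was the most abundant, at 627 and 729 RPM.

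Messages listed here as bound by Igf2bp proteins differed by less than 1.5-fold wherever they lay above the floor. Myc, also bound, is counted among the members and is not on this list. Its ratio was 1.66. Of 12 listed, 11 lay above the floor, with 0 higher and 0 lower by 1.5-fold or more, beside 10.8% and 8.56% of all genes. Their median log2 ratio was 0.08. Igf2, the growth factor gene for which the family is named, was lowest, with 364 and 246 reads, 22.7 and 16.6 RPM and a ratio of 0.731 (0.620 to 0.862). H19, a noncoding RNA of the same imprinted locus, had 36.1 and 28.8 RPM and was named after its value was seen. Actb, of beta-actin and the most abundant, had 2928 and 3230 RPM. Igf2 and H19 were both lower in the library in which Igf2bp1 was lower; whether the 3 are related was not tested.

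Hmga1 (chromosome 20, 5769052 to 5772269, plus strand) encodes an AT-hook protein that bends DNA and loosens chromatin. It had 163 and 129 reads, or 10.2 RPM (8.67 to 11.9) and 8.71 RPM (7.27 to 10.3). The ratio was 0.856 (0.674 to 1.09) and the log2 ratio −0.22, inside the like-level range of −1.13 to 1.29. At this depth no difference could be detected. The transcript model counted here is 319 bases long, shorter than all but 2.93% of models, against a median of 1786 bases, so reads from parts of the mRNA outside the model were not counted. Per 1000 bases Hmga1 was the most abundant of the members, at 31.9 and 27.3 RPM, above 84.7% and 82.0% of all genes.

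Hmga2 (chromosome 7, 59638555 to 59753791, minus strand), the paralog with the best known run of let-7 sites, was listed at 0 reads in both libraries. Its model has 506 bases, shorter than all but 5.00% of models, so reads from parts of the mRNA outside the model were not counted. The limit of 3 reads for a gene at 0 equals 0.370 and 0.4002 RPM per 1000 bases, so levels below these could not have been seen. Both limits lie far below the per-length level of Hmga1. An effect of the inhibitors on Hmga2 could not be read.

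A count of 0 in this table need not mean that a gene is silent. Hmgb1, a chromatin protein gene that nearly all cells use, was also listed at 0 in both libraries (named after its value was seen), and in all 5216 genes (31.0%) were. The limits given here cover counting error only.

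Other high-mobility-group genes went both ways. Of 12 listed, 8 passed the floor. In the anti-miR library 2 (25%) were higher by 1.5-fold or more and 1 (12.5%) lower, beside 10.8% and 8.56% of all genes. The median log2 ratio was 0.32 beside 0.03 for all genes. Hmgn2, a nucleosome-binding protein gene, was highest with 7.24 and 13.4 RPM, at 0.88. Hmgn1, its close relative, was lowest with 25.01 and 15.7 RPM, at −0.67. Ssrp1, a subunit of the histone chaperone FACT, was the most abundant at 145 and 171 RPM. Whether reads of these genes were shared with similar copies elsewhere in the genome was not tested.

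**Figure D2:**
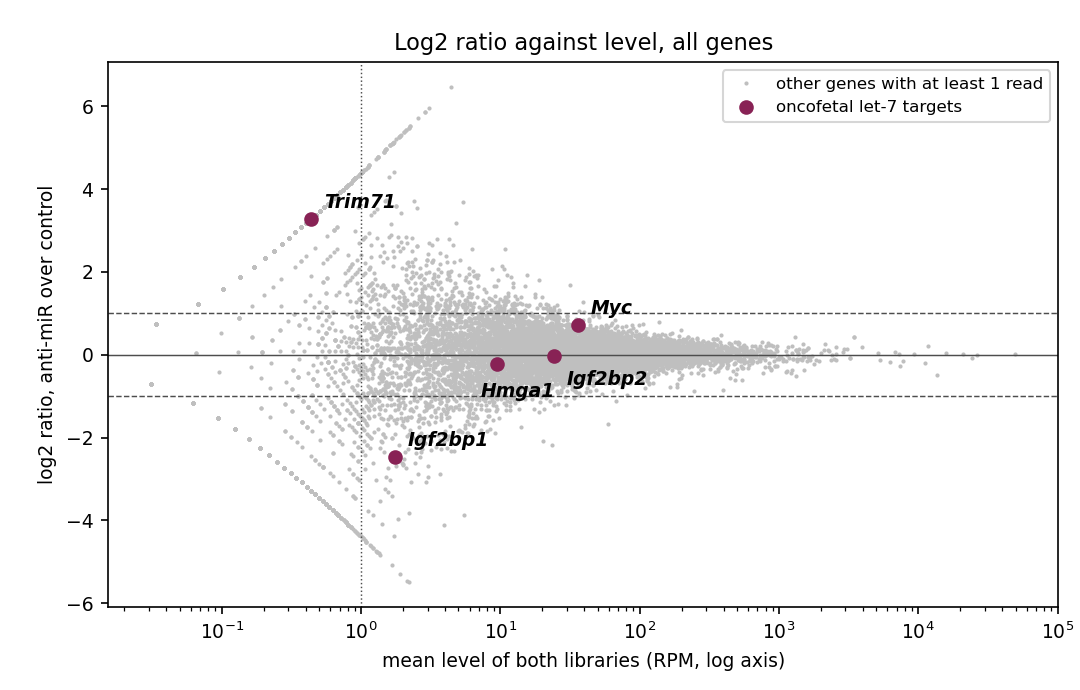
Log2 ratio of anti-miR over control (vertical axis) against the mean level of both libraries in RPM (log axis), 1 grey point per gene with at least 1 read and the 5 oncofetal genes with reads in purple. Dashed lines mark 2-fold and the dotted line the floor of 1 RPM. Igf2bp1 and Trim71 sit where the cloud is widest, and Myc lies at the upper edge of the cloud at its level.

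Lin28a was also listed at 0 reads in both libraries, but the row does not describe the gene cleanly. The table places it on chromosome 4, 95842080 to 95845011, although its band field and RefSeq (GRCr8) put Lin28a on chromosome 5. That position overlaps the pseudogene Lin28c, also at 0 and 0 reads. The row has 2 placements in the genome, and its length of 3102 bases exceeds the 2932 bases that the placement spans. Such rows are rare: 225 genes had 2 or more placements, and 153 of 16160 with a chromosome in the band field (0.947%) were placed on another one. The limit for the row is 0.0603 and 0.0653 RPM per 1000 bases, and whether it applies to the chromosome 5 gene cannot be told from the table.

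Trim71 (chromosome 8, 118905817 to 118972365, minus strand), the mammalian counterpart of the worm gene lin-41 in which let-7 regulation was first worked out, was listed at 0 reads in the control library against 13 in the anti-miR library. Its level in the anti-miR library was 0.877 RPM (0.467 to 1.5005), which is 4.69 times the limit of 3 reads in the control library. The exact interval of the ratio runs from 3.30 upward. With a mean of 0.439 RPM the gene lies below the floor. In the table, 218 genes had 0 control reads but at least 13 anti-miR reads, and 136 had the reverse. Trim71 is thus 1 of many genes seen in a single library.

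Genes of the LIN28 and let-7 processing pathway had log2 ratios centred near 0. The list holds the uridylyltransferases and the exonuclease that remove LIN28-bound precursors, the Drosha, Dicer and Argonaute machinery, helpers that bind the precursors, and 3 relatives of Trim71 (Trim2, Trim3 and Trim32). Of 18 listed, 16 had rows and all 16 passed the floor. Dicer1 itself and the uridylyltransferase Tut7 were matched to no row and are not analysed here. Of the 16, 3 (18.8%) were higher by 1.5-fold or more and 0 lower, beside 10.8% and 8.56% of all genes. The median log2 ratio was 0.04. Tarbp2, the double-stranded RNA-binding partner of Dicer, was highest with 149 and 271 reads, 9.29 and 18.3 RPM, and a ratio of 1.97 (1.61 to 2.42). The other two were Zcchc11, the uridylyltransferase also called Tut4, with 12.5 and 19.4 RPM, and Xpo5, the exporter of miRNA precursors, with 44.4 and 68.8 RPM. These 2 were picked with their values in view. Ddx5, a helicase of the Drosha complex, was both the lowest at −0.20 and the most abundant, at 902 and 786 RPM.

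Myc (chromosome 7, 98953142 to 98958059, plus strand), a driver of growth and division whose short-lived mRNA also follows serum and handling, was the 1 member at least 1.5-fold higher. Its reads numbered 433 in the control library against 663 in the anti-miR library, or 27.0 RPM (24.5 to 29.7) and 44.7 RPM (41.4 to 48.3). The ratio was 1.66 (1.47 to 1.87) and the log2 ratio 0.73. This lay above the like-level range of −0.64 to 0.66 for the 500 genes at 32.9 to 38.9 RPM. At 5 to 100 RPM, 8.99% of genes were at least 1.5-fold higher and 6.45% at least 1.5-fold lower. Per 1000 bases Myc stood at 11.9 and 19.7 RPM, above 67.2% and 76.5% of all genes.

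Mycn (chromosome 6, 36508262 to 36514071, minus strand), the paralog used mainly by embryonic and neural progenitors, was listed at 0 reads in both libraries. The limit of 3 reads corresponds to 0.0718 and 0.0777 RPM per 1000 bases. Mycl1, the third paralog, had 16 and 9 reads, and its ratio of 0.609 carried an interval, 0.237 to 1.46, that includes 1; it was named after its value was seen. Myc was the 1 family member above the floor.

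Partners and antagonists of MYC did not follow 1 direction. Max, the obligate dimer partner, had 169 and 108 reads, 10.5 and 7.29 RPM, and a ratio of 0.692 (0.538 to 0.886). Per 1000 bases Max stood at 22.1 and 15.3 RPM, above Myc in the control and below it in the anti-miR library. This order rests on the lengths of the counted models, 477 bases for Max and 2277 for Myc. Of the MXD proteins, which compete with MYC for MAX, Mxd4 had 32.9 and 54.5 RPM and a log2 ratio of 0.72. Mxd3 had 22 and 61 reads, 1.37 and 4.12 RPM, at 1.52, the highest of the list, and Mxd1 had 30.1 and 19.6 RPM, at −0.61, the lowest. Mycbp2, a large ubiquitin ligase, was the most abundant at 152 and 186 RPM. Of 15 network genes 12 had rows and 10 lay above the floor, around a median of 0.12. Of the 10, 2 (20%) were higher by 1.5-fold or more and 1 (10%) lower, beside 10.8% and 8.56% of all genes. Mxi1 was listed at 0 reads in both, but its row has 2 placements in the genome, so the 0 may not describe the gene cleanly. Max, Mxd4 and Mxi1 were named for their roles, after their values were seen.

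**Figure D3:**
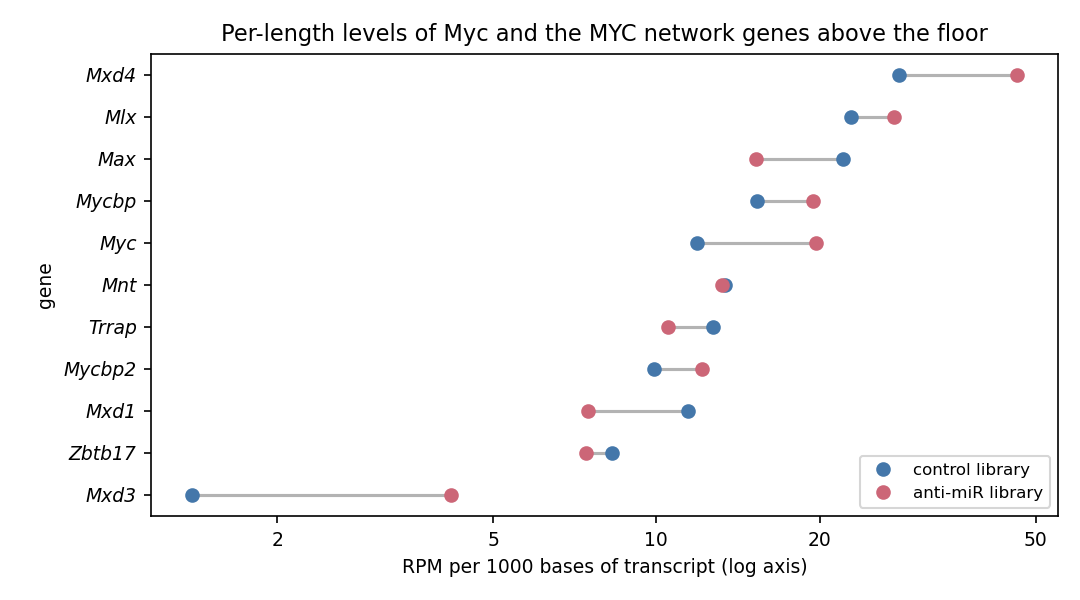
Levels per 1000 bases of transcript, in RPM on a log axis, of Myc and the 10 MYC network genes above the floor, with the control library in blue and the anti-miR library in red, joined by a line for each gene. Myc moves from 11.9 to 19.7 while Max moves from 22.1 to 15.3, so their order differs between the libraries. That order rests on the model lengths, 477 bases for Max and 2277 for Myc.

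Commonly cited MYC target genes were near 0 as a list while Myc itself was higher. All 30 passed the floor: 1 (3.33%) was higher by 1.5-fold or more and 0 lower, beside 10.8% and 8.56% of all genes. The median log2 ratio was 0.03, equal to that of all genes at this rounding. The 1 higher gene was Tert, the catalytic subunit of telomerase, with 16 and 72 reads, 0.998 and 4.86 RPM, and a ratio of 4.87 (2.80 to 8.97). It lies in the band of 1 to 5 RPM, where 23.6% of genes were at least 2-fold higher. Nme1, a nucleoside diphosphate kinase, was lowest at −0.57, with 49.2 and 33.0 RPM, and the amino acid transporter gene Slc7a5, the most abundant, had 262 and 257 RPM.

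Of 9 proliferation markers that passed the floor, 5 were higher by 1.5-fold or more in the library with more Myc, 0 were lower by as much and 4 lay between, beside 10.8% higher and 8.56% lower over all genes. Their summed level was 278 and 358 RPM. Cdk1, the mitotic kinase, was highest at 1.15, Mcm2, a subunit of the replicative helicase, lowest at −0.12, and Pcna, the replication clamp, the most abundant at 80.3 and 92.7 RPM. Their part in the Myc difference was not tested, and in bulk RNA a larger number of dividing cells cannot be told apart from more RNA per cell.

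The 35 other cited or predicted let-7 targets had ratios spread around 0. Of 31 with rows, 29 passed the floor: 2 were higher by 1.5-fold or more, 1 lower and 26 between, around a median of 0.05. That is 6.90% and 3.45% of the 29, below the shares of all genes at that fold. Arid3b, an AT-rich-interaction factor, was highest at 0.78 with 53 and 85 reads, and the zinc finger gene Plagl2 was lowest at −0.83 with 671 and 348. Col1a2, a collagen gene and the most abundant, had a log2 ratio of 0.02. Cell-cycle genes of the list went both ways: Ccnd1 stood at 0.11, Cdc25a at −0.07, Cdc34 at −0.12, Cdk6 at −0.34 and Ccnd2 at −0.47. These 5 were named with their values in view.

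Other fetal and oncofetal genes also went both ways. The lists overlap: Plag1 is also among the other cited let-7 targets, and Igf2 and H19 are among the Igf2bp-bound messages. Of 12 with rows 9 passed the floor, around a median of 0.15. Of the 9, 1 (11.1%) was higher by 1.5-fold or more and 1 (11.1%) lower, beside 10.8% and 8.56% of all genes. Cdkn1c, an imprinted cell-cycle inhibitor, was highest with 29 and 66 reads, at 1.25. Plagl1, an imprinted zinc finger gene, was lowest with 74 and 40 reads, at −0.75, and Grb10, an imprinted adaptor of growth factor receptors, was the most abundant at 202 and 225 RPM. Afp, Dlk1 and Bex1 were listed at 0 reads in both.

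**Figure D4:**
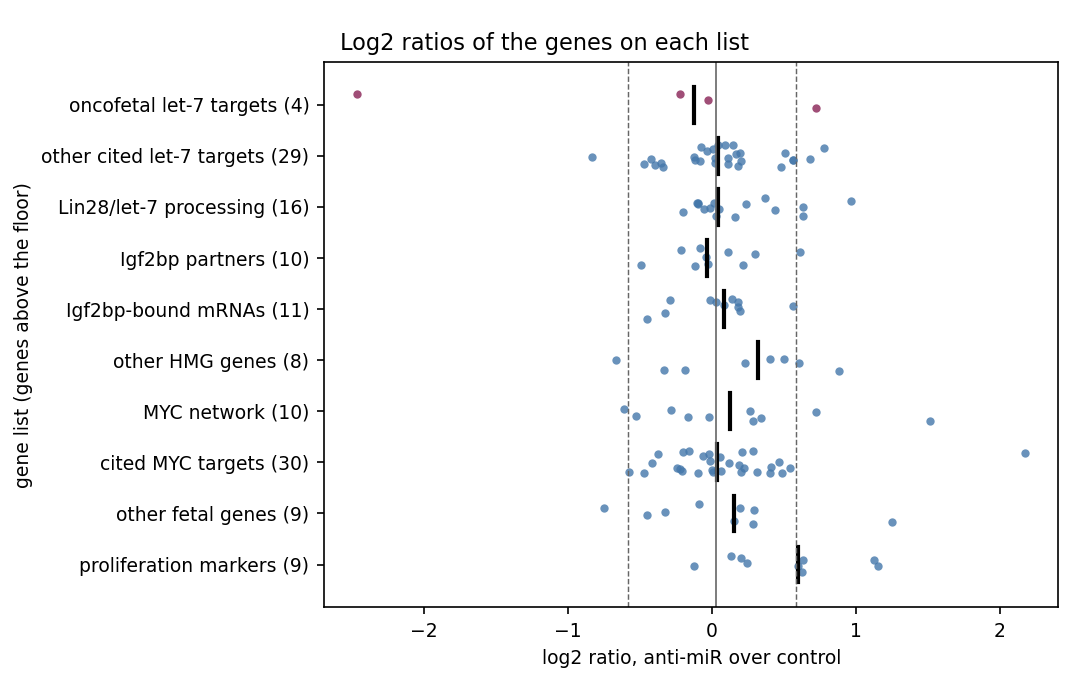
Log2 ratios of anti-miR over control (horizontal axis) for every gene above the floor on each list (rows, with the number of genes), with black bars for list medians. Dashed lines mark 1.5-fold and the solid line the median of all genes, 0.03. The 4 oncofetal genes spread from −2.46 to 0.73.

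The cell makeup of the cultures touches these levels. The 14 cardiomyocyte markers with rows summed to 251 and 287 RPM, and 7 of them lay above the floor. Tnnt2 (147 and 161 RPM) and Actc1 (77.0 and 88.8 RPM) were the most abundant. Of the 7, 5 had a log2 ratio above 0 and 2 below. Myl7 was at 0 in both libraries. Myh6, Ryr2, Myl3 and Tnni3 were at 0 in the control, with 23, 20, 19 and 5 anti-miR reads. Tnni1 was at 0 in the anti-miR library with 9 control reads. Myl2 had 30 and 5 reads. Fibroblast markers summed to 145342 and 146321 RPM over 13 genes, and leukocyte markers to 8199 and 8849 RPM over 14, with Cd163 at 0 in both. Smooth muscle and epicardial markers summed to 2770 and 2713 RPM, and endothelial markers to 47.5 and 70.3 RPM, with Emcn at 0 in both. Single endothelial markers went both ways. Flt1, the most abundant of them, had 396 and 665 reads, or 24.7 and 44.9 RPM. Tek had 56 and 114 reads, Egfl7 71 and 89, and Tie1 158 and 120. Pecam1 had 0 and 50 reads and Cdh5 0 and 1, while Plvap had 33 and 0 and Vwf 47 and 3. Most markers of the labelled cell type were scarce beside those of fibroblasts, and which cells the oncofetal transcripts came from was not tested.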

How the data were processed

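Poly(A) RNA was measured by strand-specific RNA-seq in 1 control and 1 anti-miR library. Each deposited value is a signal, the reads on a gene after scaling. HOMER, per the file headers, counted reads over exons of rn4 RefSeq transcripts, on the strand opposite to the read and with 1 transcript kept per gene, and the authors then scaled both columns to the same total in a step not given in the sources used here. CASAVA 1.8.2 and STAR 2.2.0c are also listed, per the submitters' processing notes.

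Whole reads were recovered, since 1 read is worth 0.962 units for the control and 1.04 for the anti-miR library; 100% of values up to 400 reads were whole within 0.006 deposited units. Depth was 16031780 and 14815846 reads on genes. Each log2 ratio divides the anti-miR RPM by the control RPM after 0.1 was added to both, which understates the difference of low genes; RPM per 1000 bases uses the table's length column. Intervals of ratios and shares are exact Clopper-Pearson and those of levels exact Poisson, at 95%. They cover counting error only, since reads are not independent molecules. A mean of at least 1 RPM was the floor. Called means a ratio of at least 2 for genes and 1.5 for lists. Named from a list are its most abundant gene and the genes with its largest and smallest ratio, by rule; 1 such gene is not reported here. Members and lists were chosen with earlier results of these data known. The 8 matched members were all found by accession in RefSeq. Interval and test code was tested on simulated data (Python 3.11.15, scipy 1.17.1).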

Additional observations from a re-analysis of the deposited data

How the results depend on the processing

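No paired analysis was possible because each group has 1 library. Myc, Igf2bp2, Hmga1 and Igf2bp1 kept their direction under both other pseudocounts and both other scalings, which shifted all log2 ratios by −0.02. A pseudocount of 1 RPM brought Igf2bp1 from −2.46 to −1.46 and Trim71 from 3.29 to 0.91, while 0.01 RPM brought them to −2.67 and 6.47; the Trim71 value is set by the pseudocount, since its control count is 0. With 1 RPM there were 238 genes at least 2-fold lower in place of 369. With a floor of 5 RPM 171 genes were at least 2-fold higher and 112 lower, and 0 members were lower, since Igf2bp1 lies under that floor. With no floor the counts were 1189 and 710 genes, and 1 member, Trim71, was at least 2-fold higher. At a ratio of 1.5 they were 1124 and 887, with 1 member higher, Myc. The median of the MYC network list was −0.02 with a floor of 5 RPM, opposite in sign to 0.12. A binomial test of the read pairs (exact, with Benjamini-Hochberg adjustment at 0.05) compares these libraries and not the conditions. It called 3679 genes higher and 2942 lower of 11630, Myc, Igf2bp1 and Trim71 among them and Igf2bp2 and Hmga1 not. Depth and the lack of a replicate limit what can be said of Igf2bp1, Trim71 and the genes listed at 0. For Lin28a the placement of its row is a further limit.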
